A study of Mus musculus with 12 samples.

Results

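Transcripts of the small heat shock proteins of muscle and of their co-chaperone Bag3 were followed through total and ribosome-bound RNA of wild-type (WT) and Rpl3l-/- (KO) adult mouse hearts. The set was chosen by gene name and holds 8 genes (Hspb1, Hspb2, Hspb3, Hspb6, Hspb7, Hspb8, Cryab and Bag3) of the 55401 gene rows in each count file. All 8 were found and all 8 had counts in each of the 12 libraries. The 4 groups were WT Input, KO Input, WT IP and KO IP, with 3 libraries labelled as biological replicates in each. Input is poly(A) RNA of the heart homogenate, and IP is the poly(A) RNA recovered with an anti-HA antibody from hearts treated with cycloheximide, which holds ribosomes on their mRNA. RNA for the fractions was purified by different methods (TRIzol for Input, spin columns for IP), so purification and fraction cannot be told apart. The labels give genotype and tissue, and they do not name the tagged ribosomal protein, the promoter or cell type that drives it, the strain or exact age of the animals, or whether an Input and an IP library came from the same heart. Rpl3l encodes a paralog of the ribosomal protein Rpl3 that is used in striated muscle.

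Small heat shock proteins share an alpha-crystallin domain and act without ATP. They assemble into oligomers and hold unfolding proteins in a soluble state until Hsp70 can refold them or hand them on for degradation. In heart muscle they bind desmin, titin, actin and filamin. Bag3 joins Hspb8 and other small heat shock proteins to Hsp70 and directs damaged filamin and other clients to autophagy, and mutations of BAG3 and CRYAB cause cardiomyopathy and myofibrillar myopathy in humans.

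Many genes of this family are known targets of heat shock factor, which binds inverted repeats of GAA. RefSeq windows from 250 bases before to 50 bases after the start site (build GRCm38.p6) were held for 6 of the 8 members, in 7 windows. The inverted pairs GAANNTTC and TTCNNGAA, which are palindromes and so read the same on either strand, were searched. Among all 32851 windows of 300 bases, 7.86% held GAANNTTC, 8.52% held TTCNNGAA and 15.1% held either. Of the members' windows, 5 of 7 held a match, in 5 genes, and each match was GAANNTTC. The sites are shown because their core letters recur between members. Each is 30 bases, written 5′ to 3′ on the gene's strand with the matched pair in capitals.
Hspb1, position -117, chr5:135887791-135887820, plus strand: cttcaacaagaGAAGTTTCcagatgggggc
Hspb1, position -97, chr5:135887811-135887840, plus strand: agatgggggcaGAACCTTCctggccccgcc
Hspb6, position -120, chr7:30553170-30553199, plus strand: aagtaattattGAAGTTTCtaaataaggaa
Hspb8, position 3, chr5:116422844-116422873, minus strand: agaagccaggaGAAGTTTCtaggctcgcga
Bag3, position 43, chr7:128523603-128523632, plus strand: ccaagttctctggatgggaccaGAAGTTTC
Hspb3, position -224, chr13:113663882-113663911, minus strand: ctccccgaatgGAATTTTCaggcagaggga
Positions are those of the first capital, counted from the RefSeq start site. Hspb1, Hspb6, Hspb8 and Bag3 held the same 8 letters, GAAGTTTC. On either strand these letters occurred in 1.21% of all windows, a search made after the sites had been seen. The Hspb6 match lay at the downstream of its 2 RefSeq start sites, and the window of Hspb7 held neither pair. A match describes letters only.

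All 8 genes are annotated as protein coding in GENCODE M21 (build GRCm38). Cryab (ENSMUSG00000032060.10) lies on chromosome 9 at 50751325 to 50756636, and Hspb2 (ENSMUSG00000038086.4) lies against it on the other strand at 50751078 to 50752354. The exons of this pair share 252 bases, through 1 of the 6 annotated Cryab transcripts. The sources used here do not say whether counting used strand, so reads of the pair from the shared stretch cannot be told apart. Over all libraries Hspb2 had 594 counts and Cryab 13776. Hspb7 (ENSMUSG00000006221.7) is on chromosome 4 at 141420779 to 141425311, Hspb1 (ENSMUSG00000004951.10) on chromosome 5 at 135887919 to 135889563 and Hspb8 (ENSMUSG00000041548.4) on chromosome 5 at 116408491 to 116422864. Hspb6 (ENSMUSG00000036854.14) is on chromosome 7 at 30552178 to 30555443. Its exons share 122 bases with Proser3 and 3 with Lin37 on the other strand, which had 13 and 50 counts over all libraries against 3185 for Hspb6. Bag3 (ENSMUSG00000030847.8) is on chromosome 7 at 128523616 to 128546981 and Hspb3 (ENSMUSG00000051456.4) on chromosome 13 at 113662896 to 113663676. The longest coding transcripts are short: 773 bases for Hspb2, 930.0 for Hspb1, 1117 for Cryab, 1363 for Hspb6 and 1816 for Hspb8, against 2562 for Bag3, 2769 for Hspb7 and a median of 3135 over the coding genes tested.

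Libraries held 169359 to 710868 counts, and 3 counts, the limit that a count of 0 allows, stand for 4.22 to 17.7 CPM, counts scaled to a library of fixed size. The 3 KO Input libraries (169359 to 291040 counts) were all shallower than the 3 WT Input libraries (356705 to 443177). The targeted gene followed the labels: in KO Rpl3l had a log2 fold change of -2.46 in Input and -5.84 in IP, and its paralog Rpl3 one of 0.95 and 1.35 (edgeR, adjusted p 1.77e-05, 9.27e-12, 0.0102 and 0.000171). Of 10 cardiomyocyte markers 9 passed the count filter, and Actc1, the cardiac actin gene, was listed at 0 in every library. The summed level of all 10 was 50981 to 65848 CPM in Input and 57014 to 68603 CPM in IP. The 5 atrial markers (Nppa, Myl7, Myl4, Sln and Bmp10) summed to 6065 to 7306 CPM in WT Input, 8461 to 10587 in KO Input, 388 to 1129 in WT IP and 330 (329.9) to 967 in KO IP, and Bmp10 was listed at 0 in all WT IP libraries. All 5 were lower in IP than in Input in both genotypes. Globin genes took 1.70% to 17.2% of the counts.

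Levels below are CPM after scaling by trimmed mean of M values (TMM). Cryab, the alpha-B crystallin that chaperones desmin, was the most abundant member. It stood at 2198 ± 230.3 CPM in WT Input (SD, n = 3), 1902 ± 317 in KO Input, 2807 ± 121 in WT IP and 2815 ± 555 in KO IP. Among the other members, WT Input means were 843 CPM for Hspb7, 650.5 for Hspb6, 535 for Hspb8 and 356 for Hspb1. Those of Bag3 (190.2) and Hspb2 (125) were lower, and that of Hspb3 was lowest. Whether counts grew with transcript length in these nanopore libraries was not tested, and the orders per length hold only if they did. Divided by the length of the longest coding transcript, WT Input levels ran in the order Cryab at 1968 CPM per kb, Hspb6 at 477, Hspb1 at 383, Hspb7 at 304, Hspb8 at 295, Hspb2 at 162, Bag3 at 74.3 and Hspb3 at 16.6. In that order only Hspb7 and Hspb8 had libraries that overlapped (292 to 324 and 263 to 325 CPM per kb). In WT IP the order per length was Cryab (2513), Hspb7 (763), Hspb1 (503), Hspb6 (486), Hspb8 (408), Hspb2 (137), Bag3 (136) and Hspb3 (27.98), with overlap between Hspb1 and Hspb6, between Hspb6 and Hspb8, and between Hspb2 and Bag3. Undivided, the WT IP mean of Hspb8 (740.4 CPM) stood above those of Hspb6 (662) and Hspb1 (468), and that of Bag3 (349.6) above Hspb2 (106).

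**Figure D1:**
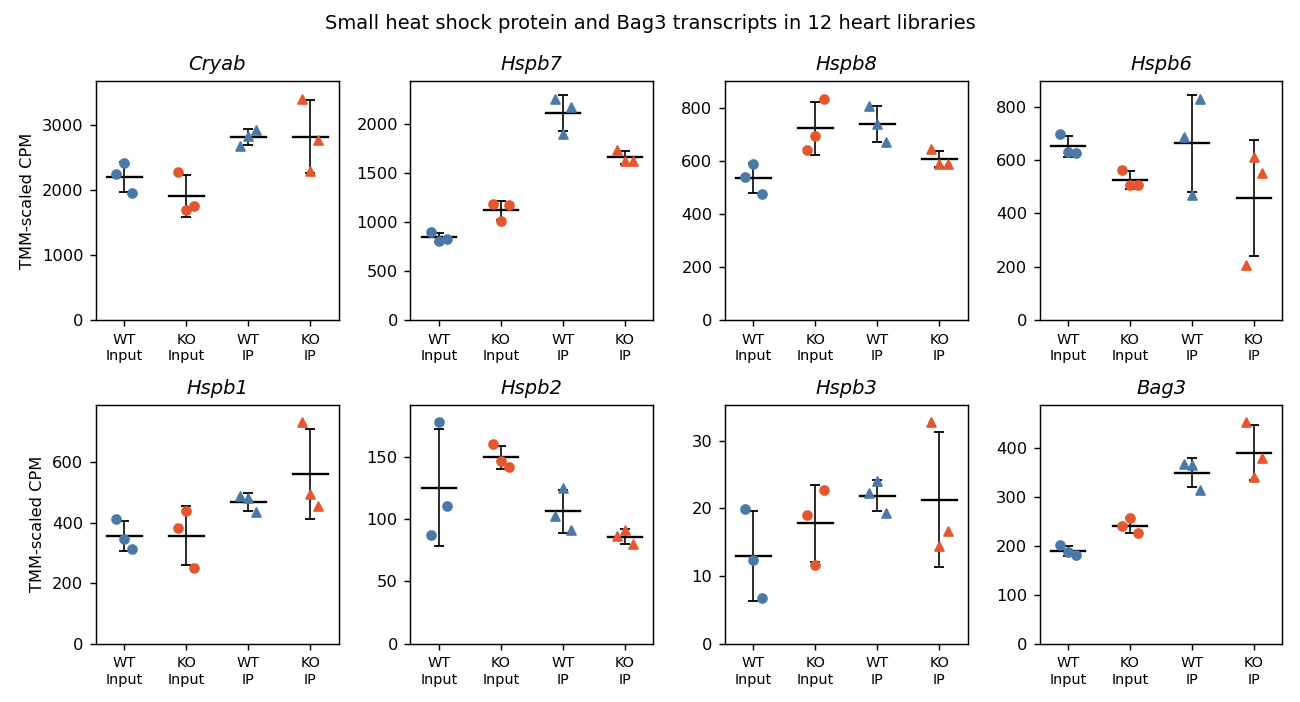
TMM-scaled CPM (y axis, from 0) of the 8 genes in each of the 12 libraries, by group (x axis). Points are libraries (circles Input, triangles IP), horizontal lines are group means and error bars are SD of 3 libraries. Hspb7 and Bag3 are higher in all 6 IP than in all 6 Input libraries, and Hspb6 has a single low IP library at 208 CPM.

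The comparison of KO with WT asks which of these transcripts differ in the heart, and on its tagged ribosomes, when Rpl3l is missing. None of the 7 members tested passed at an adjusted p of 0.05 in either fraction by edgeR, where 0.182% of all 6596 genes passed in Input and 0.091% in IP. At an unadjusted p under 0.05 there were 2 members in Input (Hspb7 and Hspb8; 7.11% of all genes) and 2 in IP (Hspb6 and Hspb7; 5.20% of all genes). DESeq2 and limma-voom called none of them either. The members' median log2 fold change was 0.25 in Input and -0.29 in IP, beside -0.01 and 0.00 over all genes. In bulk RNA, fewer cells of a type and less RNA per cell cannot be told apart.

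Hspb7, which modulates assembly of actin filaments in the heart, had 897, 809 and 823 CPM in WT Input and 1184, 1009 and 1171 in KO Input. Every KO library lay above every WT library. In IP the order was turned, with 2257, 1902 and 2178 CPM in WT and 1736, 1619 and 1622 in KO, and every KO library lay below every WT library. The log2 fold change of Hspb7 was 0.41 in Input (SE 0.15, 95% interval 0.10 to 0.72, adjusted p 0.526) and -0.35 in IP (SE 0.14, interval -0.64 to -0.05, adjusted p 0.920). Hspb8, a principal partner of Bag3, had 538, 589 and 477 CPM in WT Input and 644, 693 and 835 in KO Input. In IP it had 807, 742 and 673 CPM in WT and 644, 589 and 590.1 in KO. As for Hspb7, the genotypes did not overlap in either fraction, with KO higher in Input and lower in IP. As shares of library totals, both genes overlapped between genotypes in IP. There WT IP replicate 2, with 17.2% globin counts, had 0.162% for Hspb7, below the 0.168% to 0.174% of KO IP. The log2 fold change of Hspb8 was 0.43 in Input (SE 0.16, interval 0.10 to 0.75, adjusted p 0.526) and -0.29 in IP (SE 0.15, interval -0.59 to 0.02, adjusted p 0.949).

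Bag3 had 202, 187 and 181 CPM in WT Input and 239.9, 258 and 227 in KO Input, again without overlap. Its log2 fold change in Input was 0.35 (SE 0.18, interval -0.03 to 0.73, adjusted p 0.724). In IP it had 367, 367 and 315 CPM in WT and 453, 341 and 379 in KO, which overlapped (0.15, SE 0.15, interval -0.16 to 0.47, and 0.04 without KO IP replicate 1). Hspb6, a target of protein kinase A also called Hsp20, had 695, 631 and 625 CPM in WT Input and 564, 505 and 506 in KO Input, every KO library being the lower (-0.31, SE 0.26, interval -0.84 to 0.22, adjusted p 0.855). As shares of library totals the Hspb6 ranges in Input overlapped (0.0521% to 0.0630% in WT and 0.0452% to 0.0526% in KO). In all, 4 of the 7 tested members had no overlap between genotypes in Input after TMM scaling, where 12.4% of all genes had none. Of these, 3 were higher and 1 lower in KO, beside 6.17% and 6.2% of all genes. In IP 2 of 7 had none, both lower in KO, beside 10.8% of all genes (5.44% lower). The shallower KO Input libraries and the higher atrial marker sums in KO Input, which did not overlap with WT either, move with these Input differences, and their part in them was not tested.

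Cryab, Hspb1 and Hspb2 overlapped between genotypes in both fractions. Cryab had 2243, 2402 and 1948 CPM in WT Input and 2266, 1683 and 1756 in KO Input (-0.21, SE 0.17, interval -0.57 to 0.15, and -0.37 without KO Input replicate 1). On ribosomes it had 2676, 2830.2 and 2914 CPM in WT and 3395, 2289 and 2761 in KO, and the log2 fold change was 0.00 (interval -0.35 to 0.35). The Input interval leaves room for a fall of Cryab as large as the rise of Hspb7 there (0.41), and does not reach a rise of that size. The IP interval ends near the Hspb7 value in IP (-0.35). Hspb1 (Hsp27), which regulates actin, had 411, 345 and 312 CPM in WT Input and 381, 439 and 250.025 in KO Input (0.02, interval -0.41 to 0.44), and in IP 487, 481 and 435 in WT and 730.4, 493 and 455 in KO (0.25, interval -0.13 to 0.63). KO IP replicate 1 was the highest library for Hspb1, for Cryab and for Bag3, and without it the Hspb1 value in IP was 0.02. Hspb2, which binds the kinase Dmpk, had 87.2, 178 and 111 CPM in WT Input, 159.9, 146 and 142 in KO Input, 102, 125 and 91.6 in WT IP and 86.3, 91.6 and 79.8 in KO IP. Its genotype difference was 0.25 in Input (interval -0.25 to 0.76) and -0.30 in IP (interval -0.77 to 0.16). The Input value was 0.03 without WT Input replicate 1 and 0.61 without WT Input replicate 2, and the IP value was -0.18 without WT IP replicate 2.

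In IP, Hspb6 had 687, 469 and 829 CPM in WT and 208, 611 and 550.2 in KO. The low library, KO IP replicate 1, had 89 Hspb6 counts, where KO IP replicates 2 and 3 had 467 and 331. The log2 fold change of Hspb6 in IP was -0.52 (SE 0.24, interval -1.02 to -0.02, adjusted p 0.943), -0.19 without that library and -0.78 without KO IP replicate 2. Hspb3, the partner of Hspb2 in a muscle complex, did not pass the count filter of the 12-library fit, and among the 8 to 14 settings per comparison where it was tested, the lowest adjusted p that edgeR or DESeq2 gave was 0.300. It had 8, 5 and 2 counts in WT Input, 5, 3 and 4 in KO Input, 15, 14 and 11 in WT IP and 14, 11 and 10 in KO IP.

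**Figure D2:**
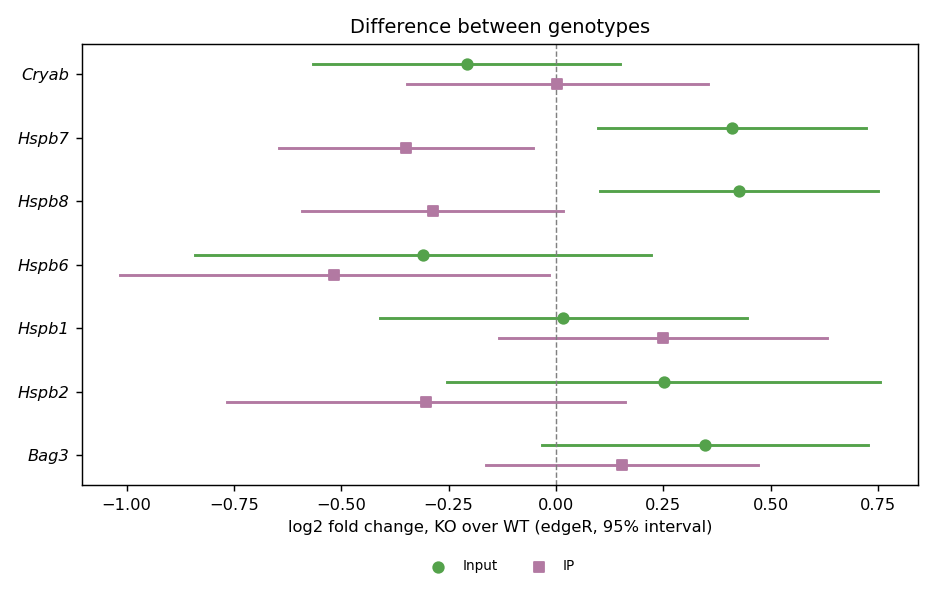
Log2 fold change of KO over WT (x axis) with its 95% interval from edgeR for the 7 members tested, in Input (circles) and IP (squares). For Hspb7 and Hspb8 the Input value lies above 0 (0.41 and 0.43) and the IP value below 0 (-0.35 and -0.29).

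The comparison of IP with Input asks how the transcripts were shared out between tagged ribosomes and total RNA. In WT, 3 members rose in IP and none fell, where 14% of all genes passed (5.37% higher, 8.67% lower). In KO, 4 rose and 1 fell, where 16.4% passed (6.64% higher, 9.78% lower). Markers of some other cells moved with the fraction. The summed level of the 5 adipocyte markers was 117 to 451 CPM in Input and 11.7 to 56.4 in IP. Only 1 of these 5 passed the count filter (log2 ratio -3.35 in WT and -3.13 in KO). The 5 atrial markers fell as described. Endothelial sums were 701 to 998 CPM in Input and 483 to 698 in IP, but the 6 endothelial genes tested did not move together. Their log2 ratios were positive for 2 and negative for 4 in WT (1 called lower). In KO they were positive for 3 and negative for 3 (2 called lower). Cardiomyocyte, fibroblast (1046 to 1978 CPM in Input, 1247 to 2065 in IP), smooth muscle, macrophage, erythroid and skeletal muscle sums overlapped between fractions. The part of cell types in the members' differences was not tested. When libraries were scaled by their totals, the all-gene median was as high as 0.15, and the split of calls went to 417 higher and 439 lower in WT and 599 higher and 448 lower in KO, from 354 and 572 and from 438 and 645. The direction of each tested member stayed the same under that scaling in these comparisons.

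Hspb7 had the highest ratio in WT. Its mean rose from 843 ± 47.6 CPM in Input to 2112 ± 187 in IP, 2.50-fold (log2 1.32, SE 0.15, adjusted p 5.33e-07), and in KO from 1121 ± 97.4 to 1659 ± 66.6 CPM, 1.48-fold (log2 0.57, SE 0.15, adjusted p 0.00929). The lowest IP library of Hspb7 in either genotype, at 1619 CPM, was above the highest Input library, at 1184. Bag3 rose 1.83-fold in WT (log2 0.88, SE 0.17, adjusted p 0.000672) and 1.603-fold in KO (0.68, SE 0.17, adjusted p 0.00699), from 190.2 ± 10.6 to 350 (349.6) ± 29.8 CPM and from 242 ± 15.5 to 391 ± 56.6 CPM. Bag3 in both genotypes and Hspb7 in WT kept their call under all 18 alternatives. Hspb7 in KO lost it without KO Input replicate 2 (adjusted p 0.0584) and kept it under the other 17.

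The other calls were less stable. Hspb8 rose in WT IP, from 535 ± 56.3 to 740.4 ± 67.1 CPM (log2 0.47, SE 0.15, adjusted p 0.0394), and in KO had 724 ± 99.5 CPM in Input and 608 ± 31.6 in IP (-0.25, SE 0.15, adjusted p 0.298). The WT call ended without WT Input replicate 1, 2 or 3 (adjusted p 0.121, 0.0608 and 0.178) or WT IP replicate 1 or 2 (0.148 and 0.0961), with log2 values that stayed between 0.39 and 0.54. Cryab rose in KO IP (log2 0.56, SE 0.17, adjusted p 0.0263), a call that ended without KO Input replicate 2 or 3 (0.124 and 0.0608) or KO IP replicate 1 or 3 (0.121 and 0.0531), and in a fit of the compared libraries alone (0.0660). In WT the value for Cryab was 0.35 (adjusted p 0.180, SE 0.17) with all IP libraries above all Input libraries. Hspb1 rose in KO IP (0.62, SE 0.20, adjusted p 0.0340), which ended without KO Input replicate 1 or 3 (0.0751 and 0.152) or KO IP replicate 1 (0.180, log2 0.40) and in a fit of the compared libraries alone (0.0558). In WT the Hspb1 value was 0.39 (SE 0.19, adjusted p 0.191). Hspb2 was the only member that fell, in KO IP (-0.80, SE 0.24, adjusted p 0.0254), which ended without KO Input replicate 1 or 2 (0.105 and 0.0696) or any of KO IP replicates 1 to 3 (0.0507, 0.0511 and 0.0889), and under DESeq2 (0.0770), scaling by library totals (0.0821) or no count filter (0.0826). Without single KO libraries the Hspb2 value stayed between -0.84 and -0.73. In WT Hspb2 had -0.25 (SE 0.23). Hspb6 did not pass in either genotype (0.02, interval -0.48 to 0.53, in WT, and -0.18, interval -0.71 to 0.34, in KO).

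Transcript length moved with the fraction. Over all genes, the median log2 ratio of IP to Input in WT ran from -0.49 for transcripts of up to 1000 bases (535 genes, 33.5% lower) to 0.23 for those over 5000 (1506 genes, 3.05% lower), and in KO from -0.56 to 0.32. With this trend removed, the ratios of the longer members Hspb7 (1.31 in WT, 0.57 in KO) and Bag3 (0.88 and 0.71) stayed near their values. The short members moved up. Cryab then stood at 0.70 in WT and 0.94 in KO (adjusted p 0.00160 and 7.90e-05) and Hspb1 at 0.80 and 1.10 (0.00207 and 0.000109), so that 5 members passed in WT and 4 in KO, beside 12.1% and 13.3% of all genes at this setting. Hspb2 lost its call in KO (-0.22, adjusted p 0.622) and turned to 0.22 in WT.

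**Figure D3:**
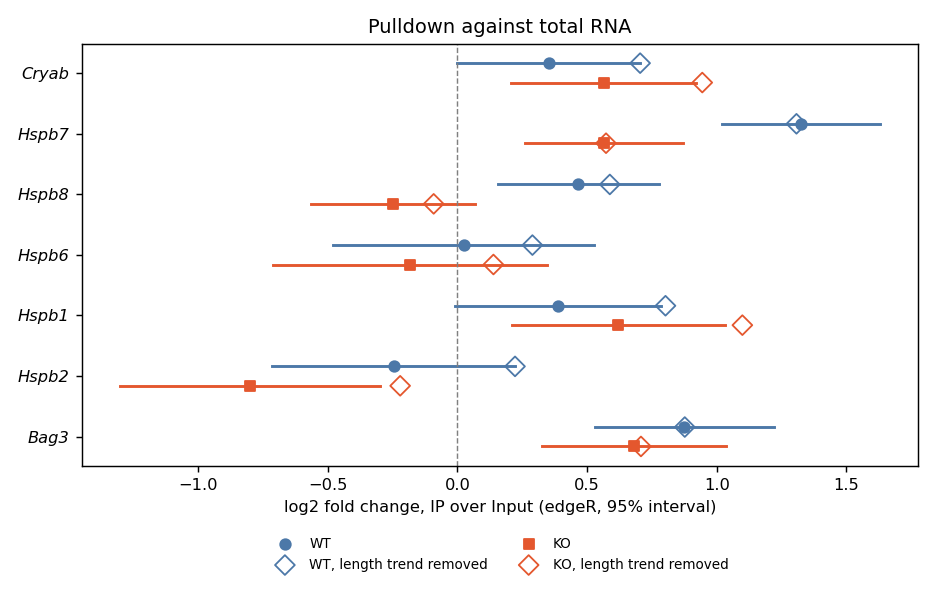
Log2 fold change of IP over Input (x axis) with its 95% interval from edgeR for the 7 members tested, in WT (circles) and KO (squares). Open diamonds are the values with the length trend removed. Hspb7 in WT is farthest to the right at 1.32, and the diamonds of the short transcripts Cryab, Hspb1 and Hspb2 lie to the right of their unadjusted values.

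Whether the ratio of IP to Input itself differed between genotypes was tested by the interaction, which combines the group means already given and is no separate evidence. By edgeR no member passed, where 0.091% of all genes did, and 2 members (Hspb7 and Hspb8) had an unadjusted p under 0.05, where 7.02% of all genes had. The ratio of Hspb7 was lower in KO by a log2 difference of -0.76 (SE 0.21, interval -1.19 to -0.33, unadjusted p 0.00126, adjusted p 0.324). With DESeq2 the same difference was -0.76 with adjusted p 0.00337, the lowest of 23 alternatives, whose highest was 0.748. This was the only alternative that called it. The log2 difference of Hspb7 ran from -0.86 to -0.71 over the alternatives. For Hspb8 the difference was -0.71 (SE 0.22, interval -1.16 to -0.27, unadjusted p 0.00285, adjusted p 0.409, and from 0.136 to 0.781 over the alternatives). The difference for Hspb2 was -0.55 (interval -1.24 to 0.13), for Hspb6 -0.21 (-0.94 to 0.52), for Bag3 -0.19 (-0.69 to 0.30), for Cryab 0.21 (-0.29 to 0.71) and for Hspb1 0.23 (-0.34 to 0.80). Single libraries moved these smaller differences. Without KO IP replicate 1 that of Hspb1 was 0.0034, of Cryab 0.06, of Bag3 -0.31 and of Hspb6 0.12. Without WT Input replicate 2 that of Hspb2 was -0.91, and without WT Input replicate 1 it was -0.33.

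The 7 small heat shock protein genes took 0.359% to 0.473% of all counts in WT Input, 0.402% to 0.487% in KO Input, 0.560% to 0.738% in WT IP and 0.614% to 0.660% in KO IP, so every IP library exceeded every Input library. These are shares of library totals and depend on that scaling, under which the all-gene median log2 ratio of IP to Input was 0.11 in WT and 0.15 in KO. Shares within the family do not depend on how libraries are scaled. Of the summed counts of the 7 genes, Hspb7 made up 16.3% to 19.1% in WT Input, 22.5% to 25.0% in KO Input, 28.9% to 32.1% in WT IP and 25.4% to 28.4% in KO IP. The 4 ranges did not overlap, with a wide gap between Input and IP in WT and a narrow one in KO (25.0% to 25.4%). These shares come from the same counts as the Hspb7 interaction, which edgeR did not call (adjusted p 0.324). They also depend on the counts of the other 6 genes, and how many genes would be separated in this way was not counted. Cryab made up 45.3% to 48.4% in WT Input and 37.5% to 43.4% in KO Input, and 38.0% to 43.1% in WT IP and 40.1% to 49.7% in KO IP. The Hspb8 share was 11.004% to 11.9% in WT Input, 12.3% to 17.8% in KO Input and 9.42% to 11.5% over the IP libraries. The Hspb6 share of KO IP replicate 1 was 3.04%, beside 7.14% to 11.6% in the other IP libraries. Bag3 counts per 100 Hspb8 counts were 31.8 to 38.0 in WT Input and 27.2 to 37.3 in KO Input, against 45.5 to 49.4 in WT IP and 58.0 to 70.3 in KO IP. The ratio of Bag3 to its partner was therefore above all Input libraries in every IP library, and higher in KO IP than in WT IP without overlap. How often other pairs of genes are separated in this way was not counted. By edgeR neither gene was called between genotypes in IP (adjusted p 0.985 for Bag3 and 0.949 for Hspb8). These shares and ratios are a description with no test.

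**Figure D4:**
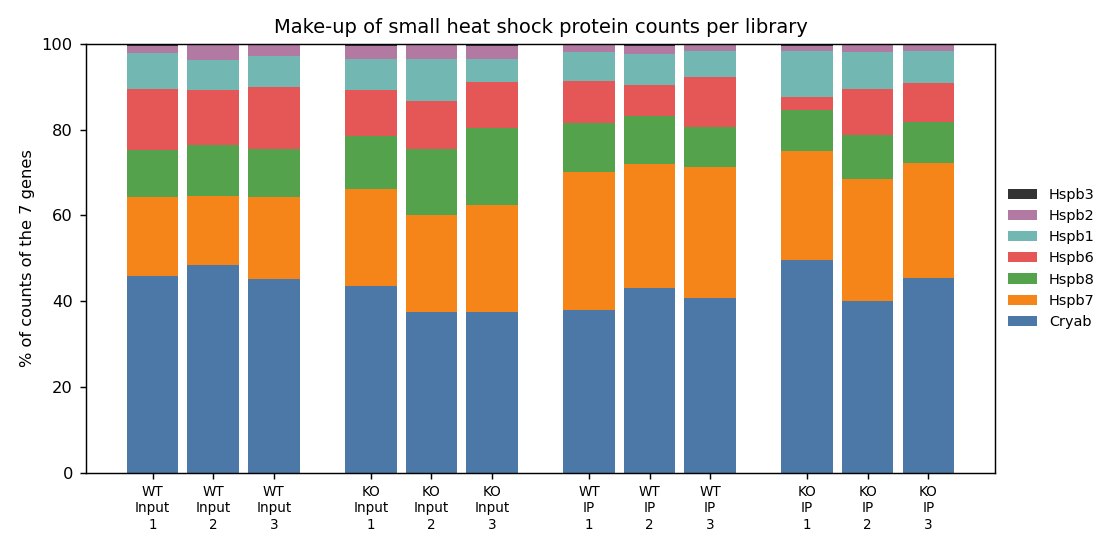
Share of each gene (stacked bars, % of the summed counts of the 7 small heat shock protein genes, y axis) in each library (x axis, grouped by genotype and fraction). The Hspb7 segment is between 16.3% and 19.1% in WT Input and between 28.9% and 32.1% in WT IP, and the Hspb6 segment is thinnest in KO IP replicate 1.

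Likeness between genes was measured as the root mean square difference of log2 CPM, centred on each gene's mean, over the 12 libraries, among 6026 other genes with a mean of at least 20 CPM. The genes nearest to Hspb7 were Fstl1 (0.14) and Mybpc3 (0.18), and Bag3 was the 8th nearest (0.24). Bag3 was nearest to Aldoa (0.14) and Lonp1 (0.15), Hspb8 to Ghitm (0.14) and Popdc2 (0.15), and Cryab to Rab7-ps1 (0.11) and Slc25a3 (0.13). The members' own spread around their mean, on the same scale, ran from 0.22 for Hspb8 and 0.29 for Cryab to 0.52 for Hspb7. A distance of 0.14 is therefore less close, relative to that spread, for Hspb8 than for Hspb7. Hspb1 was nearest to Fh1 (0.15) and Apoe (0.16), with Bag3 and Cryab ranked 76 and 77 (both 0.25). Hspb2 was nearest to Hes1 (0.18) and Cyc1 (0.20), and its neighbour Cryab ranked 3034 (0.58). Hspb6 was nearest to Mbnl2 (0.18) and Cnih4 (0.23). Over the 42 ordered pairs of tested members, only Bag3 for Hspb7 ranked among the 10 nearest genes.

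The other genes of the pathway were taken from lists of its known components, and their values were not adjusted for the trend with transcript length. Of 18 genes of the Bag3 complex and of chaperone-assisted autophagy, 14 were tested, and none passed between genotypes in Input or IP (median log2 fold change 0.06 and -0.02, beside -0.01 and 0.00 over all genes). Between fractions, 1 rose and 2 fell in WT IP, where 14% of all genes passed. Synpo, which encodes synaptopodin, rose (0.93, SE 0.27, adjusted p 0.0221), and the autophagosome genes Map1lc3a (-0.54, adjusted p 0.0175) and Map1lc3b (-0.57, adjusted p 0.0271) fell. In KO IP 2 rose and 3 fell, where 16.4% of all genes passed. Sqstm1, the autophagy receptor p62, rose from 223 ± 42.0 to 470 (469.6) ± 73.2 CPM (log2 1.06, adjusted p 0.000401), and Map1lc3a (-0.92) and the Hsp40 gene Dnajb5 (-1.42, adjusted p 0.00308) fell. Hspa8, the constitutive Hsp70 that Bag3 binds, had values between -0.13 and 0.08 in all 5 comparisons. The inducible Hsp70 genes Hspa1a and Hspa1b did not pass the filter, with group means from 2.64 to 12.1 CPM.

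Of 19 heat shock factors and their classical targets, 15 were tested and none passed between genotypes (median -0.06 in Input and 0.10 in IP). In KO IP 2 rose and none fell, where 16.4% of all genes passed: the cytosolic chaperone gene Hsp90ab1 (0.86, adjusted p 0.000709) and the mitochondrial chaperonin Hspd1 (0.67, adjusted p 0.00637). Among the other BAG genes 4 of 5 were tested, Bag4 being listed at 0, and Bag6, a chaperone of membrane and misfolded proteins, rose in IP in both genotypes (0.63 in WT, adjusted p 0.0421, and 1.57 in KO, adjusted p 3.81e-05). Of 13 clients and partners of the small heat shock proteins in the sarcomere and cytoskeleton, 12 were tested and none passed between genotypes (median 0.05 in Input and -0.03 in IP). Flnc, the muscle filamin that Bag3 turns over, fell in KO IP (-0.79, SE 0.26, adjusted p 0.0382) and was the only one of them to pass between fractions. Desmin (Des), the classic client of Cryab, had -0.02 in WT and 0.16 in KO. Cryaa, Hspb9 and Odf1, the members of the family found in lens and testis, were listed at 0 in all libraries.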

How the data were processed

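Poly(A) RNA of 12 heart libraries was sequenced as nanopore direct cDNA, multiplexed on a MinION, per the labels' protocols. The deposited files hold raw read counts per gene. The submitters' processing notes name minimap2 2.14, DESeq2 1.34.0 and build GRCm38, and the sources used here do not give the counting rule. Of 55401 gene IDs, 55141 matched GENCODE M21 without their version. No label gives a sequencing run, so no batch could be examined.

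Counts were fitted with edgeR 4.0.16 (limma 3.58.1, R 4.3.3): 6596 genes passing filterByExpr (minimum count 10, minimum total 15), TMM scaling, then quasi-likelihood tests of 5 comparisons on the 4 group means of all 12 libraries, each adjusted by Benjamini and Hochberg over all tested genes (threshold 0.05). Standard errors were derived from the fold change and F. CPM were computed here from the deposited counts. The script was tested on simulated data. With 3 libraries against 3, the smallest exact permutation p is 0.10, so significance rests on the model.

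Alternatives were DESeq2 size factors, library totals, no and stricter filters (30 counts in 3 libraries), the DESeq2 1.42.0 and limma-voom tests, a fit of the compared libraries alone, a replicate block, removal of the length trend (loess span 0.5), omission of globin genes, and omission of single libraries in turn. Added after seeing the data were 2 pairs of libraries left out together. Named genes were all members, up to 3 called genes per list and comparison with the smallest p, and the 2 most alike genes per member. Hspa8, Des, Hspa1a, Hspa1b, Cryaa, Hspb9 and Odf1 were named for their role. The calls of the heat shock list between fractions in WT are not reported here. The members and lists were chosen with earlier results of these data known.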

Additional observations from a re-analysis of the deposited data

How the results depend on the processing

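No member was called between genotypes under any of the 17 alternatives in Input or in IP. The count of members called in KO between fractions, 5, was 3 with only the compared libraries, 2 without KO Input replicate 3 and WT Input replicate 3, 3 without WT IP replicate 2 and KO IP replicate 1, and 2 to 4 without single libraries. In WT the count of 3 was 5 with the length trend removed and 2 with the replicate block, without either pair of libraries and in 5 of 6 omissions of single libraries, and for the interaction 1 rather than 0 with DESeq2.

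Over all genes, the count called between genotypes in Input, 12, was 77 with no count filter, 5 with the stricter filter, 6 without both replicates 3 and 4 to 17 without single libraries. In IP the count of 6 was 55 with no filter and 2 to 7 without single libraries. For the interaction, 6 became 11 with DESeq2, 1 with limma-voom, 37 with no filter, 2 without either pair of libraries and 1 to 8 without single libraries. Between fractions in WT, 926 became 601 to 686 without single libraries.

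Values near 0 changed sign. Cryab between genotypes in IP (0.00) was -0.029 with limma-voom, -0.0076 with no filter, -0.012 with the replicate block, -0.0032 without globin genes, -0.15 without WT IP replicate 2 and KO IP replicate 1, and -0.15 to 0.13 without single libraries. Hspb1 between genotypes in Input (0.02) was -0.00015 with limma-voom, -0.032 with no filter and -0.17 to 0.20 without single libraries. Hspb2 between fractions in WT (-0.25) was 0.22 with the length trend removed and -0.47 to 0.11 without single libraries. Hspb6 between fractions in KO (-0.18) was 0.14 with the length trend removed, 0.15 without WT IP replicate 2 and KO IP replicate 1, and -0.43 to 0.16 without single libraries. In WT (0.02) it was -0.015 with limma-voom, -0.027 with the stricter filter and -0.16 to 0.22 without single libraries, and its interaction (-0.21) ran from -0.47 to 0.12. The cause was not tested.

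Of 651 values of single members under alternatives, 592 kept direction and side of the threshold. Libraries of equal replicate number correlated at -0.22 to 0.07 over all pairs of groups, and 3 of 18 matched best with their own number, all between genotypes. Input and IP libraries of the same genotype, which alone could share a heart, correlated at -0.048 to -0.0059. With 3 libraries per group these values cannot decide whether libraries were paired. With the replicate block, Hspb8 between fractions in WT lost its call (adjusted p 0.0560, log2 0.47), no other member's call changed, and the genes called were 15 and 8 between genotypes in Input and IP, 858 and 1009 between fractions in WT and KO, and 4 for the interaction. Depth limits Hspb3, which had 2 to 15 counts per library.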
